A study of Mus musculus with 68 samples.

Results

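Duodenal and colon tumours of ApcMin mice that were heterozygous for Cftr were compared. These were 2 duodenal and 2 colon tumours, 4 of the 23 specimens of the study, and they fill 8 of its 68 sequencing columns. They were chosen by genotype and organ as given in the sample labels, and no measured value was used. The study asked which genes and pathways go with loss of Cftr, the apical chloride and bicarbonate channel, in intestinal tumours of mice with and without a mutant Apc gene. Polyadenylated RNA was read on an Illumina sequencer, and the level of each gene is given in FPKM, fragments per kilobase of transcript, scaled to the number of mapped fragments.

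All mice were C57BL/6 and 3 months old. The 4 tumours share the ApcMin allele, which truncates the Wnt pathway brake Apc, and 1 mutant copy of Cftr. The labels call this genotype a Cftr knockdown. The labels name a floxed Cftr allele removed with Villin-Cre, which is active in gut epithelium, for Apc wildtype mice; how Cftr was mutated in the ApcMin mice is not given in the sources used here. Both duodenal tumours carry 1 animal label and both colon tumours another, so organ and animal cannot be told apart, and the 2 values of an organ show how tumours of 1 mouse vary. Other groups used for comparison were normal duodenum and normal colon of Apc wildtype mice that were Cftr wildtype or Cftr knockout (4 specimens of each organ), ileum and colon tumours of 1 ApcMin Cftr wildtype mouse and of 1 ApcMin Cftr knockout mouse (2 tumours of each organ in each mouse), and 2 duodenal tumours and 1 colon tumour of Apc wildtype Cftr knockout mice. For normal tissue the specimen names and the series description differ on whether epithelium or a larger piece of gut was taken.

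Tumours of ApcMin mice are adenomas in which beta-catenin is no longer degraded, so that Wnt target genes stay on. The regions of the gut keep their own gene programmes, which are set by transcription factors such as Gata4 and Pdx1 in the duodenum and the posterior Hox genes in the colon. The upper small intestine digests and absorbs nutrients across a brush border rich in hydrolases and transporters, the end of the ileum takes back bile acids, and the colon recovers salt and water.

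In what follows, pairs of duodenal values are given for tumour 1 and then for the library labelled duodenal tumour 2, and pairs of colon values for tumours 1 and 2. A log2 difference is duodenal minus colon on the log2(FPKM + 1) scale, which understates the change of genes with low levels. Its standard error (SE) and Benjamini-Hochberg adjusted p come from a limma fit over all specimens, and "rose" and "fell" are used for genes with an adjusted p under 0.05. An exact permutation test of 2 against 2 tumours cannot go below p = 0.333. The relative depth of the 4 tumours differed by at most 1.37-fold. Cftr, the targeted gene, was at 51.7 and 22.1 FPKM in the duodenal libraries and 12.7 and 9.58 FPKM in the colon tumours. Cftr wildtype specimens ranged from 18 to 32 FPKM and Cftr knockout specimens from 11.2 to 77.2 FPKM, so that the Cftr level does not check the genotype. Apc was at 14.1 and 13 FPKM against 12.1 and 13 FPKM, and transcript level does not show the point mutation. Xist was between 24 and 39.6 FPKM in all 4 tumours. Its median was 0.138 FPKM in the other duodenal and 0.335 FPKM in the other colon specimens, and a part of sex in the comparisons with them was not tested. Of 14 epithelial marker genes 7 rose and 2 fell, where 19.7% and 20.5% of all tested genes did. With quantile normalisation 4 rose and 4 fell. The median log2 difference was 0.52, and 0.2 against duodenal tumour 1 alone. Their levels summed to 10756 and 14496 FPKM in the duodenal libraries and 7636 and 7914 FPKM in the colon tumours. Some markers are regional, such as Vil1, at 603 to 929 FPKM in the other duodenal and 136 to 300 FPKM in the other colon specimens. The 25 fibroblast and collagen genes summed to 696 and 479 FPKM in the duodenal libraries and 1020 and 1036 FPKM in the colon tumours.

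The library labelled duodenal tumour 2 carried genes of the distal small intestine. Fabp6, the ileal bile acid binding protein, stood at 1.02 FPKM in duodenal tumour 1 and at 13742 FPKM in the library labelled duodenal tumour 2. The 6 other duodenal specimens of the study ranged from 1.22 to 10.7 FPKM and the 4 ileum tumours from 53.8 to 10027 FPKM. Slc10a2, the apical sodium-dependent bile acid transporter, read 1.13 and 165 FPKM (other duodenal specimens 0.331 to 0.961, ileum tumours 11.4 to 115). The same library had 63.6 FPKM of Fgf15, the hormone that signals bile acid uptake to the liver, against 0.0934 FPKM in duodenal tumour 1 and 0 to 0.0401 FPKM in the other duodenal specimens. Neurotensin (Nts), Osr2 and Tmigd1 differed in the same direction, at 3.36 and 106, 10.2 and 73 and 3.27 and 545 FPKM. Some genes of the upper small intestine were low in this library, although others such as Hnf4g, at 87.8 and 93.4 FPKM, were not. Pdx1 was at 2.85 and 0.0363 FPKM where the other duodenal specimens had 5.5 to 69.4 FPKM and the ileum tumours 0.151 to 0.275 FPKM. Enteropeptidase (Tmprss15), which starts the activation of pancreatic proteases, was at 11.6 and 0.00988 FPKM, and lactase (Lct) at 141 and 2.36 FPKM. Gata4 was at 13.5 FPKM, below the 59.1 to 82.4 FPKM of the other duodenal specimens and within the 5.02 to 29.5 FPKM of the ileum tumours. Across 14098 genes, the difference between the 2 duodenal libraries correlated with the difference between ileum tumours and the duodenal tumours of Apc wildtype mice at r = 0.261, and the difference between the 2 colon tumours at r = -0.014; these points are genes, which are not independent replicates. These genes go against the label, so the main counts and tests are given with and without the library labelled duodenal tumour 2. Against duodenal tumour 1 alone the duodenal arm is a single library, assumed to vary like the other groups. An adjusted p from that fit holds no spread between duodenal tumours of this mouse, and it can be smaller for that reason.

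**Figure D1:**
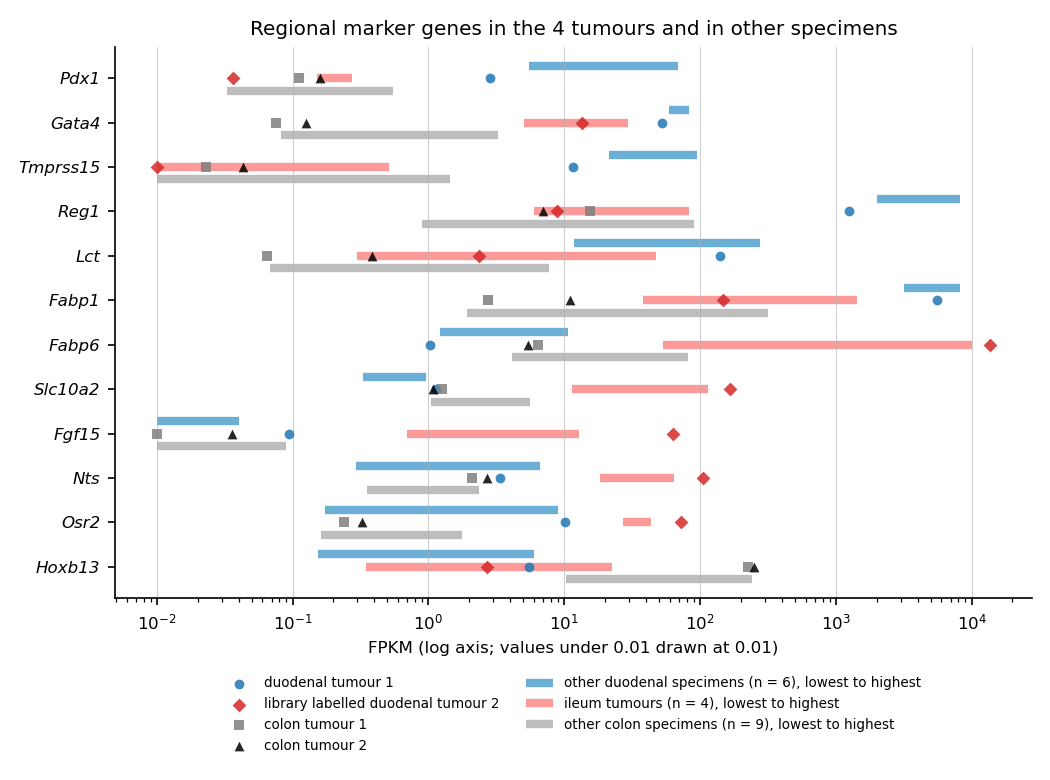
Levels in FPKM (log axis) of 12 genes that mark gut regions. Points are the 4 tumours, and bars run from the lowest to the highest of the other duodenal specimens, the ileum tumours and the other colon specimens. For Fabp6, Slc10a2 and Fgf15 the library labelled duodenal tumour 2 lies above the ileum tumours, while duodenal tumour 1 lies at 1.13 FPKM or less for the 3 genes.

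The genomic sequence just before the start of 3 genes shows letters that transcription factors of gut epithelium can bind. Sis, the sucrase-isomaltase gene, was high in both duodenal libraries, Lct in duodenal tumour 1 alone and Slc10a2 in the library labelled duodenal tumour 2 alone. The 250 bases upstream of each start site are from RefSeq on GRCm38.p6, 5′ to 3′ on the gene's strand, which is the minus strand for all 3. Capitals mark matches on either strand to letters that Cdx factors can bind, TTTATTG as the first form and TTTATGG as the second, and to letters that Gata factors can bind, TGATAA as the first form and AGATAA as the second. Sis lies before its start at chr3:72967864-72968113, Lct at chr1:128328319-128328568 and Slc10a2 at chr8:5105288-5105537.
Sis: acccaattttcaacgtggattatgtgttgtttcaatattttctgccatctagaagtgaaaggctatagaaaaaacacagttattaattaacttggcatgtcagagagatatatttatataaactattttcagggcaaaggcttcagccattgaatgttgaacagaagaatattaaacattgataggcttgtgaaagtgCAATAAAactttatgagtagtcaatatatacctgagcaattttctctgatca
Lct: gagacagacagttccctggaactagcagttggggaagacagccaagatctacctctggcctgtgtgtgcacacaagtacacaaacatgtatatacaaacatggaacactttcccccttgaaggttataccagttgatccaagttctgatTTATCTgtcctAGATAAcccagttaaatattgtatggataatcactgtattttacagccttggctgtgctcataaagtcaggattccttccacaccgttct
Slc10a2: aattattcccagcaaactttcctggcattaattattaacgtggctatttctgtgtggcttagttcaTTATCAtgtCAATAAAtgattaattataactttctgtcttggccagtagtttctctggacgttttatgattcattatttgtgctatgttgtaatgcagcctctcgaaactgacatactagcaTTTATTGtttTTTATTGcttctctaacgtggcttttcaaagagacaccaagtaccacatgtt
Sis held 1 match, to the first Cdx form. Lct held 2 matches, both to the second Gata form. Slc10a2 held 4 matches, 3 to the first Cdx form and 1 to the first Gata form. Of 32851 promoter windows of this length in the same table, 4.2% held the first and 2.43% the second Cdx form, and 7.94% held the first and 9.99% the second Gata form. Of the 13 genes reported among the largest rises, described below, 10 have a window in the table and 3 of these held the first Cdx form and 1 each Gata form; of the 15 with the largest falls 10 have a window, and 3 held the second Gata form. The other forms were in none of them. The matches are descriptions of letters, not of bound sites.

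The organs differed in the level of a large share of all genes. Of 14098 genes tested, 5665 passed the threshold, 40.2%, of which 2778 (19.7%) were higher and 2887 (20.5%) lower in the duodenal libraries. Against duodenal tumour 1 alone 3920 genes passed, 27.8%, with 2020 (14.3%) higher and 1900 (13.5%) lower. All 5665 genes kept their direction against duodenal tumour 1 alone, and 3563 of them passed in both fits. Both fits hold duodenal tumour 1 and the 2 colon tumours, so the shared direction was close to fixed in advance and is no independent check. The 2 duodenal values and the 2 colon values did not overlap for 10231 genes, 72.6% of those tested. Any count of genes from a list has to be read against these shares. Of the 223 genes tested by name here or in the lists of departures, 182 kept their direction and their side of the threshold against duodenal tumour 1 alone, 19 no longer passed, 9 newly passed and 13 changed sign. Without the other groups in the fit, 3606 genes passed.

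The largest rises included genes of absorptive cells and of Paneth cells. Apoa1 (chr9:46228580-46230466, GRCm38), the main protein of high-density lipoprotein, had 5787 and 7969 FPKM against 3.44 and 8.83 FPKM. The log2 difference of Apoa1 was 10.01 ± 1.08 (SE; limma adjusted p = 2.5e-05), and 9.78 against duodenal tumour 1 alone. For all rises named here the rule required that duodenal and colon values do not overlap. Prap1, a secreted proline-rich protein of gut epithelium, had 2843 and 1531 FPKM against 1.34 and 6.99 FPKM and a log2 difference of 8.92 ± 0.78 (SE; limma adjusted p = 5.1e-06). Apolipoprotein A-IV (Apoa4) varied between the duodenal libraries, at 5001 and 471 FPKM against 2.36 and 6.91 FPKM in the colon tumours. The other rises reported here, 13 of the 15 largest in all, were the apolipoprotein Apoc3, the intestinal fatty acid binding protein Fabp2, the hydrolases Sis, Anpep and Enpep, the bile acid exporter subunit Slc51a, Tm4sf5, the pentraxin Mptx2 and the Paneth cell defensin genes Gm14851 and AY761184. The defensin genes are near-identical copies, so their separate levels are uncertain.

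The 15 largest falls included colon identity genes and genes of granulocytes and of squamous-type epithelium. Sprr2b, a small proline-rich protein of cornified epithelium and 1 of a family of near-identical copies, had 0.308 and 0.0802 FPKM against 51.6 and 96.5 FPKM, a log2 difference of -5.92 ± 0.74 (SE; limma adjusted p = 7.5e-05). S100a8 (chr3:90668978-90670035) and S100a9, the 2 subunits of calprotectin, had 13.2 and 15.2 FPKM against 744 and 986 FPKM and 9.36 and 14.8 FPKM against 669 and 874 FPKM. Hoxb13 (chr11:96194316-96197447), the most posterior gene of its Hox cluster, had 5.53 and 2.72 FPKM against 224 and 252 FPKM, a log2 difference of -5.60 ± 1.26 (SE; limma adjusted p = 0.004) and -5.19 against duodenal tumour 1 alone (limma adjusted p = 0.032). The rule that chose the largest falls required that duodenal and colon values do not overlap, which held for 72.6% of all tested genes. The remaining falls were the sodium pump regulator Fxyd4, the water channel Aqp8, the tight junction protein Cldn8, the transglutaminase Tgm3, the colonic hormone Insl5, Sycn, Nov, Wfdc2, Sval1, Scgb1b3 and Mettl7a3. Insl5 was listed at 0 in duodenal tumour 1 and stood at 0.166 FPKM in the library labelled duodenal tumour 2, against 32.9 and 32.6 FPKM in the colon tumours. The 13 rises reported here and the 15 falls also passed against duodenal tumour 1 alone.

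**Figure D2:**
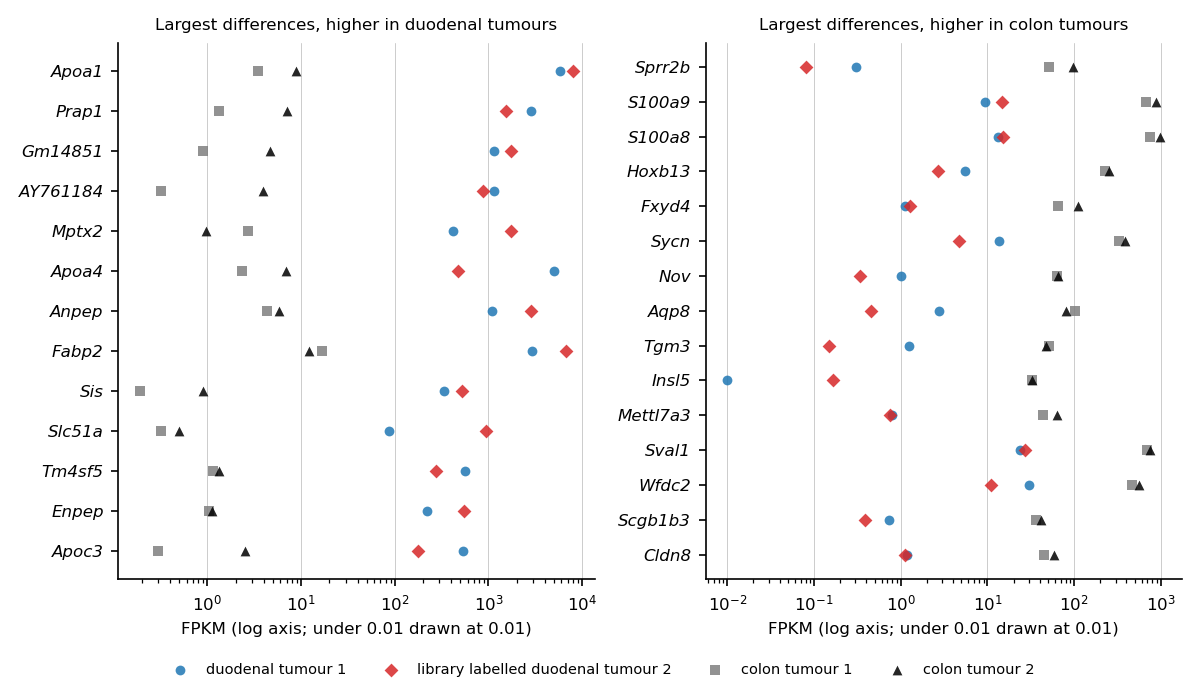
Levels in FPKM (log axis) of 13 of the 15 largest rises (left) and of the 15 largest falls (right) in each of the 4 tumours. The duodenal and colon symbols do not overlap for any of these genes, as the naming rule required, and Slc51a and Apoa4 show the widest gaps between the 2 duodenal libraries among the rises.

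Most of the transcription factors listed for the upper small intestine were higher in the duodenal libraries. A list of hindgut factors, which also held Cdx2, Tbx3 and Hoxc6, was divided. Of 12 tested upper small-intestinal factors 9 rose and 0 fell, with a median log2 difference of 1.94 against -0.02 for all tested genes, and the count was 9 against duodenal tumour 1 alone. Hnf4g, an activator of enterocyte genes, was even within each organ, at 87.8 and 93.4 FPKM against 4.12 and 4.21 FPKM and a log2 difference of 4.15 ± 0.23 (SE; limma adjusted p = 2.0e-07). Creb3l3, which drives lipid transport genes, had 183 and 106 FPKM against 6.49 and 6.69 FPKM and Gata6 36.6 and 28.6 FPKM against 15.1 and 15.4 FPKM. Osr2 rose with both libraries, although its 10.2 and 73 FPKM stood far apart, against 0.241 and 0.324 FPKM in the colon tumours. In the rest of the series Osr2 was higher in the ileum tumours (27.2 to 43.7 FPKM) than in the other duodenal specimens (0.174 to 8.99 FPKM). Gata5, also in the list, was at 29.5 to 41.4 and 27.0 to 33.1 FPKM in these groups. The list thus holds factors that are not particular to the upper small intestine. The xenobiotic sensors Nr1i3 and Nr1i2 read 17.9 and 2.29 FPKM against 0.827 and 0.627 FPKM and 33.3 and 45.2 FPKM against 15.9 and 15.7 FPKM. Pdx1, at a log2 difference of 0.82, passed against duodenal tumour 1 alone (1.77, limma adjusted p = 0.046) and not with both libraries (limma adjusted p = 0.3).

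Of 14 tested hindgut factors 5 fell and 3 rose, and 5 fell and 1 rose against duodenal tumour 1 alone. Hoxb13 and the 3 Hoxa genes of the list were among the falls. Hoxa10 had 0.458 and 0.483 FPKM against 34.1 and 28.2 FPKM, Hoxa11 0.11 and 0.0953 FPKM against 5.86 and 4.7 FPKM and Hoxa13 0.339 and 0.106 FPKM against 15.3 and 15.9 FPKM. The rises were Hoxc6, Tbx3 and Cdx2. Hoxc6 and Tbx3 were not colon genes in the rest of the series. Their medians were 0.681 and 25.3 FPKM in the other duodenal specimens and 0.0272 and 2.83 FPKM in the other colon specimens. Cdx2, which sets intestinal identity along the whole gut, had 86.2 and 160 FPKM against 20.1 and 11.4 FPKM, a log2 difference of 2.87 ± 0.70 (SE; limma adjusted p = 0.0064). The difference for Cdx2 was 2.43 against duodenal tumour 1 alone (limma adjusted p = 0.056). Its level in the other colon specimens was 12.3 to 141 FPKM.

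Genes of brush-border digestion and lipid absorption rose in the duodenal libraries. Of 22 hydrolases and sugar or peptide transporters 19 rose and 0 fell (median log2 difference 4.32), and 20 rose against duodenal tumour 1 alone (median 4.70). Sis (chr3:72888557-72967863) had 338 and 522 FPKM against 0.19 and 0.891 FPKM and a log2 difference of 8.13 ± 0.68 (SE; limma adjusted p = 3.8e-06). Aminopeptidase N (Anpep) had 1096 and 2862 FPKM against 4.35 and 5.82 FPKM. The glucose transporters differed by library. Slc5a1, the sodium-coupled apical carrier, was at 374 and 501 FPKM against 25.8 and 28.1 FPKM, whereas Slc2a2, the facilitative carrier, read 77.8 FPKM in duodenal tumour 1 and 5.89 FPKM in the library labelled duodenal tumour 2, with 0.0764 and 0.362 FPKM in the colon tumours. The intestinal alkaline phosphatase gene Alpi was at 606 and 250 FPKM against 1.61 and 1.82 FPKM. The 3 members that did not pass were Tmprss15, Akp3 and Mep1a. The first of these passed against duodenal tumour 1 alone, with a log2 difference of 3.61 (limma adjusted p = 0.0013). Mep1a, a meprin subunit, was high in the library labelled duodenal tumour 2, at 23.2 and 560 FPKM against 15.4 and 16.8 FPKM.

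Of 23 genes of lipid absorption and chylomicron assembly 19 rose and 0 fell, and the count was 19 against duodenal tumour 1 alone. Dgat1, the last enzyme of triglyceride synthesis, was even within each organ at 304 and 315 FPKM against 18.5 and 18.7 FPKM, a log2 difference of 3.98 ± 0.20 (SE; limma adjusted p = 1.3e-07). Mogat2, which acts before it, had 186 and 224 FPKM against 1.06 and 0.695 FPKM, and the microsomal transfer protein Mttp, which loads lipid onto apolipoprotein B, 475 and 298 FPKM against 1.68 and 2.3 FPKM. The cholesterol importer Npc1l1 was at 94.4 and 213 FPKM against 0.131 and 0.209 FPKM. Fabp1, the liver-type fatty acid binding protein, differed widely between the duodenal libraries (5556 and 149 FPKM against 2.74 and 11.1 FPKM), and the difference was 7.11 ± 1.54 (SE; limma adjusted p = 0.0031) with both and 9.72 against duodenal tumour 1 alone (limma adjusted p = 5.7e-04). Apoc2 showed the same order (876 and 35.9 FPKM against 15.9 and 9.39 FPKM). Cd36, Scarb1, Abca1 and Plin2, which take up, export or store lipid, did not pass with both libraries, and Cd36 passed against duodenal tumour 1 alone (3.09, limma adjusted p = 0.0076).

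The bile acid genes divided the 2 duodenal libraries. Of 8 tested members 3 rose, namely Slc51a, Slc51b and Abcc2, and 2 rose against duodenal tumour 1 alone. The median log2 difference of the list went from 3.49 with both libraries to 0.31 with duodenal tumour 1 alone. Slc51a and Slc51b form the basolateral bile acid exporter and read 86.9 and 931 FPKM against 0.316 and 0.494 FPKM and 50.9 and 783 FPKM against 12.9 and 12.8 FPKM. Slc10a2, whose upstream sequence is printed above, had a log2 difference of 3.12 with both libraries and -0.03 against duodenal tumour 1 alone (limma adjusted p = 0.98).

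Vitamin handling and drug metabolism followed absorption. Of 13 retinoid and vitamin genes 7 rose and 1 fell with and without the library labelled duodenal tumour 2. Rbp2, the cellular retinol binding protein of enterocytes, had 5136 and 1293 FPKM against 27.1 and 30.7 FPKM, and Lrat, which esterifies retinol, 5.43 and 3.85 FPKM against 0.134 and 0.166 FPKM. Amn and Cubn, the 2 subunits of the receptor for vitamin B12 with intrinsic factor, were higher in the library labelled duodenal tumour 2 and had 27.3 and 81.5 FPKM against 0.327 and 0.194 FPKM and 9.06 and 49.1 FPKM against 2.94 and 1.71 FPKM. The fall was Dhrs9, a retinol dehydrogenase (2.76 and 5.38 FPKM against 10.5 and 13.2 FPKM). Of 45 drug and xenobiotic metabolism genes 27 rose and 1 fell, and 28 rose and 0 fell against duodenal tumour 1 alone. Akr1b7, an aldose reductase-like enzyme, had 126 and 107 FPKM against 2.04 and 2.02 FPKM, a log2 difference of 5.27 ± 0.26 (SE; limma adjusted p = 1.3e-07). The cytochromes P450 Cyp3a11 and Cyp3a25 had 213 and 155 FPKM against 0.18 and 0.93 FPKM and 164 and 144 FPKM against 0.0841 and 0.407 FPKM, and the fructose kinase Khk 208 and 181 FPKM against 12.9 and 13 FPKM. The Cyp3a and Ugt genes have close copies among which reads can be split. The phase II gene Gsta1 and the constitutive androstane receptor target Cyp2b10 passed against duodenal tumour 1 alone, being high there and not in the library labelled duodenal tumour 2, at 157 and 24.4 FPKM against 25.7 and 25.2 FPKM and 91.8 and 7.08 FPKM against 6.88 and 7.66 FPKM. Of 15 iron, calcium and zinc genes 3 rose, among them the iron oxidase Heph (56.7 and 100 FPKM against 14.7 and 14 FPKM), and 2 fell, shares close to or below those of all genes. The calcium channel Trpv6 fell with both libraries (0.205 and 0.513 FPKM against 4.42 and 6.68 FPKM) and did not pass against duodenal tumour 1 alone.

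**Figure D3:**
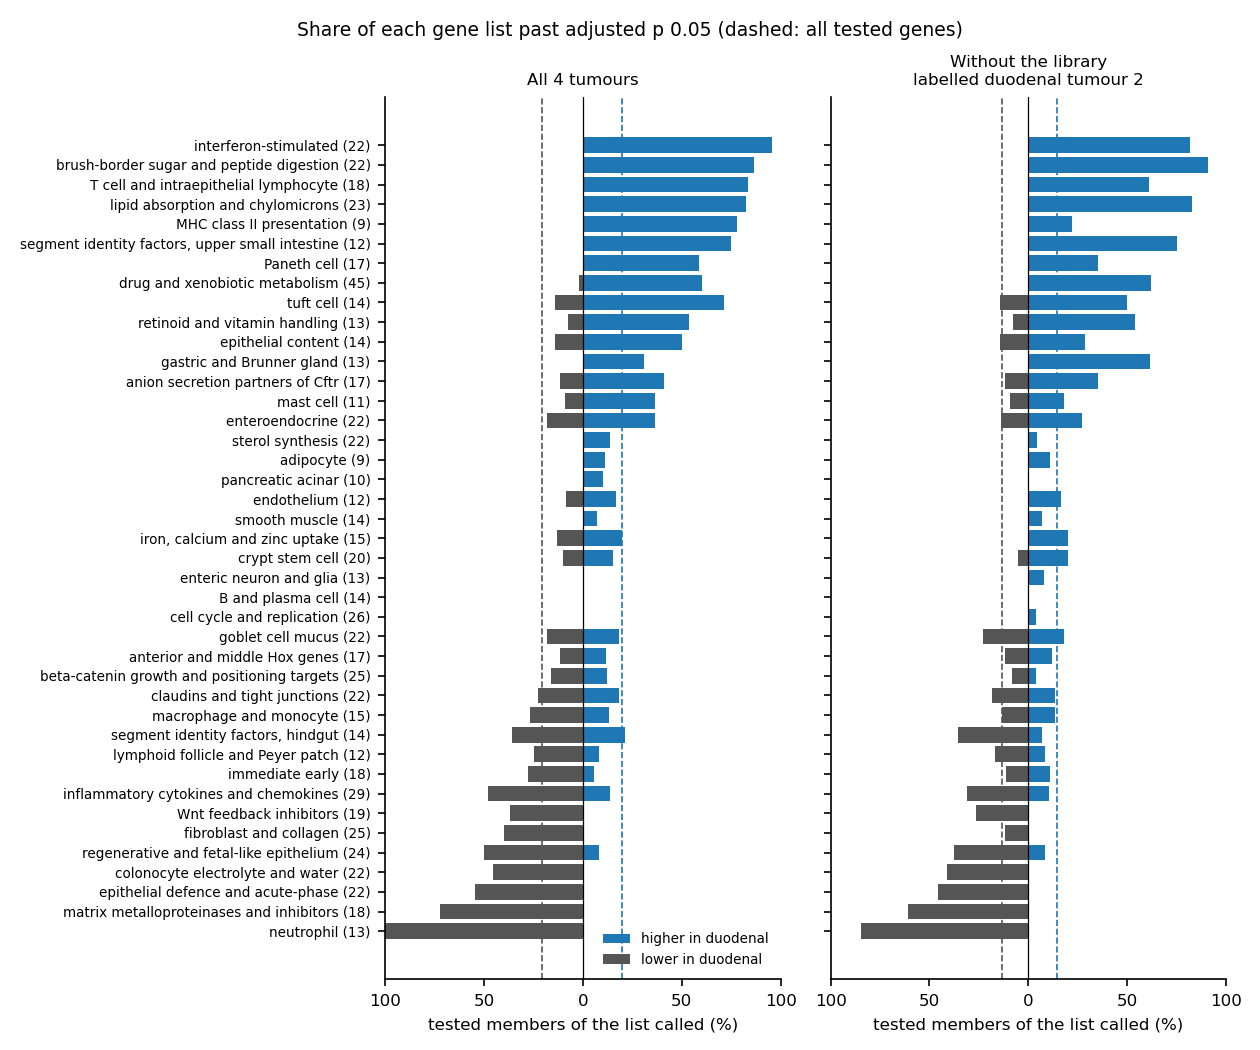
Share of the tested members of each of 41 gene lists that were higher (right) or lower (left) in the duodenal libraries, with the number of tested members in brackets; lists with fewer than 9 tested members are not drawn. Dashed lines are the shares over all tested genes, 19.7% and 20.5% with all 4 tumours and 14.3% and 13.5% without the library labelled duodenal tumour 2.

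The colon tumours expressed colonocyte genes of water and sodium recovery. Of 22 such genes 10 fell and 0 rose, and 9 fell against duodenal tumour 1 alone. The beta and gamma subunits of the epithelial sodium channel, which aldosterone induces, were at 0.225 and 0.187 FPKM against 5.64 and 7.03 FPKM (Scnn1b) and 0.0674 and 0.169 FPKM against 2.04 and 2.87 FPKM (Scnn1g). The log2 difference of Scnn1b was -2.60 ± 0.23 (SE; limma adjusted p = 5.7e-06). Hsd11b2, which protects the mineralocorticoid receptor from glucocorticoids, had 14.4 and 17.4 FPKM against 118 and 120 FPKM, and Aqp8 2.79 and 0.457 FPKM against 101 and 80.3 FPKM. Best2, a bicarbonate channel of colonic goblet cells, had 0.233 and 0.176 FPKM against 26.5 and 28.1 FPKM. The chloride exchanger Slc26a3, at 49.9 and 56.5 FPKM against 27.9 and 27.8 FPKM, and the sodium exchangers Slc9a2 and Slc9a3 did not pass. In bulk tissue, fewer cells of a type and less RNA of a gene in each cell cannot be told apart, here and for the cell types below.

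Cftr (chr6:18170687-18322768) rose in the duodenal libraries, at 51.7 and 22.1 FPKM against 12.7 and 9.58 FPKM. The log2 difference was 1.53 ± 0.34 (SE; limma adjusted p = 0.0036) and 2.13 against duodenal tumour 1 alone (limma adjusted p = 4.9e-04), while the fit on the 4 tumours and no other group gave a limma adjusted p of 0.079. The other duodenal specimens had 31.3 to 77.2 FPKM and the other colon specimens 11.2 to 30.5 FPKM. The 2 colon tumours of the ApcMin Cftr wildtype mouse, at 18 to 24.8 FPKM, lay above the heterozygous colon tumours. So did the 2 of the ApcMin Cftr knockout mouse, at 14.3 to 21.3 FPKM. The Apc wildtype Cftr knockout colon tumour, at 11.2 FPKM, lay within the heterozygous range. Of 17 tested genes of the anion secretion list 7 rose and 2 fell, and 6 rose and 2 fell against duodenal tumour 1 alone. Slc26a6, an apical chloride-bicarbonate exchanger, had 82.2 and 98.2 FPKM against 0.907 and 1.07 FPKM, a log2 difference of 5.52 ± 0.41 (SE; limma adjusted p = 1.4e-06). Slc9a3r1, a scaffold that binds the Cftr tail, had 383 and 856 FPKM against 60 and 57.5 FPKM, and the sodium-bicarbonate importer Slc4a4 15.2 and 28.6 FPKM against 5.13 and 5.99 FPKM. The 2 falls were Slc12a2, the basolateral chloride loader (58.1 and 37.6 FPKM against 116 and 105 FPKM), and Ano1, a calcium-activated chloride channel (14.4 and 10.7 FPKM against 34.7 and 40.8 FPKM). Uroguanylin (Guca2b), a peptide that opens Cftr through its receptor Gucy2c, had 1169 and 770 FPKM against 34.8 and 31.3 FPKM, and guanylin (Guca2a), at 230 and 1446 FPKM against 354 and 250 FPKM, did not pass. The basolateral potassium channel genes Kcnq1, Kcne3 and Kcnn4 did not pass, with log2 differences of -0.15, -0.52 and -0.09.

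Paneth cell genes split into those with an organ difference and those shared by the organs. Of 17 tested members 10 rose, and 6 rose against duodenal tumour 1 alone, with none lower in either fit. Lysozyme (Lyz1) was at 1797 and 3213 FPKM against 3146 and 1541 FPKM, and the groups overlapped. The protease that activates defensins, Mmp7, was at 279 and 527 FPKM against 1041 and 550 FPKM. The limma adjusted p was 0.92 for Lyz1 and 0.23 for Mmp7. Lectin Itln1 had 848 and 2437 FPKM against 176 and 63.4 FPKM, and it did not pass against duodenal tumour 1 alone (limma adjusted p = 0.052). The defensin genes Defa20, Defa21 and Defa22 were high in the library labelled duodenal tumour 2, where Defa22 reached 4583 FPKM against 92.4 FPKM in duodenal tumour 1 and 117 and 109 FPKM in the colon tumours. Gastric and Brunner gland genes had the opposite split. Of 13 tested genes 4 rose with both libraries and 8 against duodenal tumour 1 alone. Trefoil factors 1 and 2 (Tff1 and Tff2), which passed against duodenal tumour 1 alone only, had 46.7 and 1.5 FPKM against 0.926 and 1.32 FPKM and 41.7 and 0.66 FPKM against 0.937 and 0.728 FPKM, Anxa10 144 and 9.12 FPKM against 0.0298 and 0.137 FPKM and the mucin Muc6 32.9 and 4.62 FPKM against 0.275 and 0.297 FPKM. Bpifb1, a lipid-binding secretory protein, rose at 41.8 and 15.3 FPKM against 0.0846 and 0.0999 FPKM, with a log2 difference of 4.59 ± 0.42 (SE; limma adjusted p = 7.5e-06).

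Goblet cell genes showed no common direction. Of 22 tested 4 rose and 4 fell, shares of the list close to those over all genes, and 4 rose and 5 fell against duodenal tumour 1 alone. The main gel-forming mucin Muc2 (96.6 and 278 FPKM against 120 and 92.6 FPKM) and the goblet factor Spdef (35.7 and 26.1 FPKM against 26.4 and 24.3 FPKM) did not pass. Fcgbp, which crosslinks mucus, rose at 340 and 450 FPKM against 64.8 and 71.8 FPKM. The sialyltransferase St6galnac6 fell, at 13.6 and 12.7 FPKM against 227 and 249 FPKM and a log2 difference of -4.08 ± 0.46 (SE; limma adjusted p = 3.7e-05). The membrane mucin Muc1 fell as well, at 1.22 and 1.01 FPKM against 26.3 and 31.8 FPKM. Hormone genes differed by organ. Gip and Cck, hormones of the duodenum, had 62.4 and 16.8 FPKM against 0 and 0.0664 FPKM and 26.7 and 14.1 FPKM against 1.86 and 1.95 FPKM, and ghrelin (Ghrl) 30.8 and 8.8 FPKM against 0.389 and 0.092 FPKM. Peptide YY (Pyy), a hormone of ileum and colon, was at 4.1 and 76.3 FPKM against 185 and 321 FPKM, and the library labelled duodenal tumour 2 stood between duodenal tumour 1 and the colon tumours. The log2 difference of Pyy was -3.63 ± 0.91 (SE; limma adjusted p = 0.0074) and -5.59 against duodenal tumour 1 alone (limma adjusted p = 5.6e-05). In all 8 of 22 enteroendocrine genes rose and 4 fell, and 6 rose and 3 fell against duodenal tumour 1 alone, while the granule protein Chga, common to these cells, did not pass at 27 and 22.2 FPKM against 22.1 and 17.1 FPKM. Of 14 tuft cell genes 10 rose and 2 fell, with a median log2 difference of 1.4, and of 0.8 against duodenal tumour 1 alone. The taste channel Trpm5, which these chemosensory cells use, had 3.89 and 11.8 FPKM against 0.452 and 0.272 FPKM, and the kinase Dclk1 3.12 and 6.04 FPKM against 1.44 and 0.995 FPKM, both higher in the library labelled duodenal tumour 2.

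Neutrophil genes and the cytokines and proteases that go with them were higher in the colon tumours. All 13 tested neutrophil genes fell in the duodenal libraries and 11 fell against duodenal tumour 1 alone. Their levels summed to 50 and 46.2 FPKM in the duodenal libraries and 1639 and 2142 FPKM in the colon tumours, and the 11 genes other than S100a8 and S100a9 to 27.4 and 16.2 FPKM and to 225 and 282 FPKM. Ngp, a granule protein of maturing neutrophils, had 0.0787 and 0.205 FPKM against 23.5 and 30.2 FPKM, a log2 difference of -4.60 ± 0.28 (SE; limma adjusted p = 3.4e-07) and -4.68 against duodenal tumour 1 alone (limma adjusted p = 8.0e-06). The 9 other colon specimens had 0 to 1.84 FPKM of Ngp, 0.589 to 397 FPKM of S100a8 and 0.0512 to 5.19 FPKM of the chemokine receptor Cxcr2, for which these tumours had 0.25 and 0.191 FPKM against 5.15 and 6.18 FPKM. For Ngp and S100a8 both colon tumours of this mouse lay above the highest of the other colon specimens, and for Cxcr2 colon tumour 2 did. The granulocyte growth factor receptor Csf3r had 0.666 and 0.364 FPKM against 3.18 and 3.72 FPKM and the collagenase Mmp8 0.299 and 0.121 FPKM against 7.08 and 8.52 FPKM. The other colon specimens reached 9.72 FPKM of Csf3r, above both colon tumours of this mouse, and 3.9 FPKM of Mmp8, below both. Not every neutrophil gene was thus highest in this mouse. Erythroid genes, a sign of blood, summed to 227 and 187 FPKM in the duodenal libraries and 376 and 326 FPKM in the colon tumours, and their part in these differences was not tested.

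Of 29 cytokine and chemokine genes 14 fell and 4 rose, with a median log2 difference of -1.14, and of -0.79 against duodenal tumour 1 alone. The neutrophil attractants Cxcl1, Cxcl2 and Cxcl5, counted with the defence genes, had 3.5 and 2.06 FPKM against 47.4 and 37.7 FPKM, 2.19 and 1.21 FPKM against 41.2 and 52.5 FPKM and 4.88 and 3.44 FPKM against 48.9 and 78.6 FPKM. Csf3, which drives granulocyte production, was listed at 0 in duodenal tumour 1, and was at 0.0675 FPKM in the library labelled duodenal tumour 2 and 3.4 and 3.33 FPKM in the colon tumours. Il23a, a subunit of interleukin 23, had 0.813 and 1.05 FPKM against 11.6 and 7.1 FPKM and oncostatin M (Osm) 0.505 and 0.114 FPKM against 7.82 and 8.41 FPKM. Interleukin 1 beta (Il1b) had 13.4 and 4.6 FPKM against 45 and 58.2 FPKM; its log2 difference was -2.54 ± 0.66 (SE; limma adjusted p = 0.0088) and -1.87 against duodenal tumour 1 alone (limma adjusted p = 0.091). The rises were Ccl25, Ccl5, Cxcl9 and Cxcl10, chemokines that draw lymphocytes. Ccl25, which recruits lymphocytes to the small intestine, had 354 and 522 FPKM against 3.04 and 2.28 FPKM, a log2 difference of 6.89 ± 0.35 (SE; limma adjusted p = 1.3e-07). Of 22 epithelial defence and acute-phase genes, which include S100a8 and S100a9, 12 fell, and 10 fell against duodenal tumour 1 alone. Serum amyloid A1 (Saa1) had 17.3 and 258 FPKM against 887 and 947 FPKM, with the library labelled duodenal tumour 2 nearer the colon tumours. Lipocalin 2 (Lcn2), which withholds iron from bacteria, had 82.1 and 45.3 FPKM against 215 and 233 FPKM, and it did not pass against duodenal tumour 1 alone (limma adjusted p = 0.13). Nos2 and Duox2, enzymes of epithelial oxidant defence, were higher in the library labelled duodenal tumour 2 than in the other 3 tumours, at 1.78 and 70.1 FPKM against 11.5 and 12.9 FPKM and 20.1 and 192 FPKM against 20.2 and 23 FPKM.

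Of 18 matrix metalloproteinases and inhibitors 13 fell, with 11 against duodenal tumour 1 alone, and none rose. The collagenase Mmp13 had 15.5 and 9.02 FPKM against 157 and 158 FPKM, a log2 difference of -3.62 ± 0.49 (SE; limma adjusted p = 1.4e-04). Stromelysins Mmp3 and Mmp10 had 2.37 and 1.37 FPKM against 45.3 and 42.7 FPKM and 58 and 35.6 FPKM against 223 and 206 FPKM, and the macrophage elastase Mmp12 2.56 and 1.07 FPKM against 22.2 and 15.7 FPKM. Fibroblast and collagen genes fell in 10 of 25 cases with both libraries and in 3 against duodenal tumour 1 alone. The collagen gene Col1a1 did not pass, at 50.1 and 20.7 FPKM against 44.4 and 47.1 FPKM, and vimentin (Vim) fell at 71.4 and 55.3 FPKM against 242 and 206 FPKM.

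Lymphocyte, interferon and antigen presentation genes ran the other way. Of 18 T cell and intraepithelial lymphocyte genes 15 rose, and 11 rose against duodenal tumour 1 alone, with none lower. Granzymes A and B (Gzma and Gzmb), killing proteases of cytotoxic cells, had 67.9 and 175 FPKM against 2.41 and 3.37 FPKM and 16.3 and 31.2 FPKM against 1.12 and 0.546 FPKM. Cd8a was at 3.77 and 7.74 FPKM against 0.0624 and 0.0198 FPKM, a log2 difference of 2.63 ± 0.22 (SE; limma adjusted p = 3.2e-06), and Itgae, the integrin that holds these cells to epithelium, at 3.79 and 6.3 FPKM against 1.25 and 0.919 FPKM. In each of these 4 genes the library labelled duodenal tumour 2 was the higher of the 2 duodenal libraries. Of 22 interferon-stimulated genes 21 rose and 18 rose against duodenal tumour 1 alone. Ifit1, which binds viral RNA, had 14.9 and 20.4 FPKM against 0.594 and 0.505 FPKM, a log2 difference of 3.58 ± 0.35 (SE; limma adjusted p = 1.3e-05), and Isg15, a ubiquitin-like modifier, 29.3 and 29 FPKM against 2.9 and 3.33 FPKM. The exception was Ifit2, at 2.76 and 3.33 FPKM against 5.94 and 4.35 FPKM. Of 9 class II antigen presentation genes 7 rose with both libraries and 2 against duodenal tumour 1 alone. H2-Ab1 had 102 and 404 FPKM against 31.4 and 26.6 FPKM and the invariant chain Cd74 246 and 1094 FPKM against 102 and 84.4 FPKM. None of 14 B and plasma cell genes passed limma's adjusted threshold in either direction, and none had an unadjusted p under 0.05. Of 15 macrophage and monocyte genes 2 rose and 4 fell, and 2 rose and 2 fell against duodenal tumour 1 alone. Of 11 tested mast cell genes 4 rose and 1 fell, where 19.7% and 20.5% of all tested genes did. The median log2 difference of the list was 0.97, and 0.8 against duodenal tumour 1 alone. The proteases Mcpt1 and Mcpt2, close copies of each other, rose at 24.3 and 60.3 FPKM against 3.81 and 1.65 FPKM and 33.8 and 41.1 FPKM against 2.83 and 1.96 FPKM. The histamine enzyme Hdc fell at 0.653 and 0.626 FPKM against 4.41 and 5.67 FPKM.

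**Figure D4:**
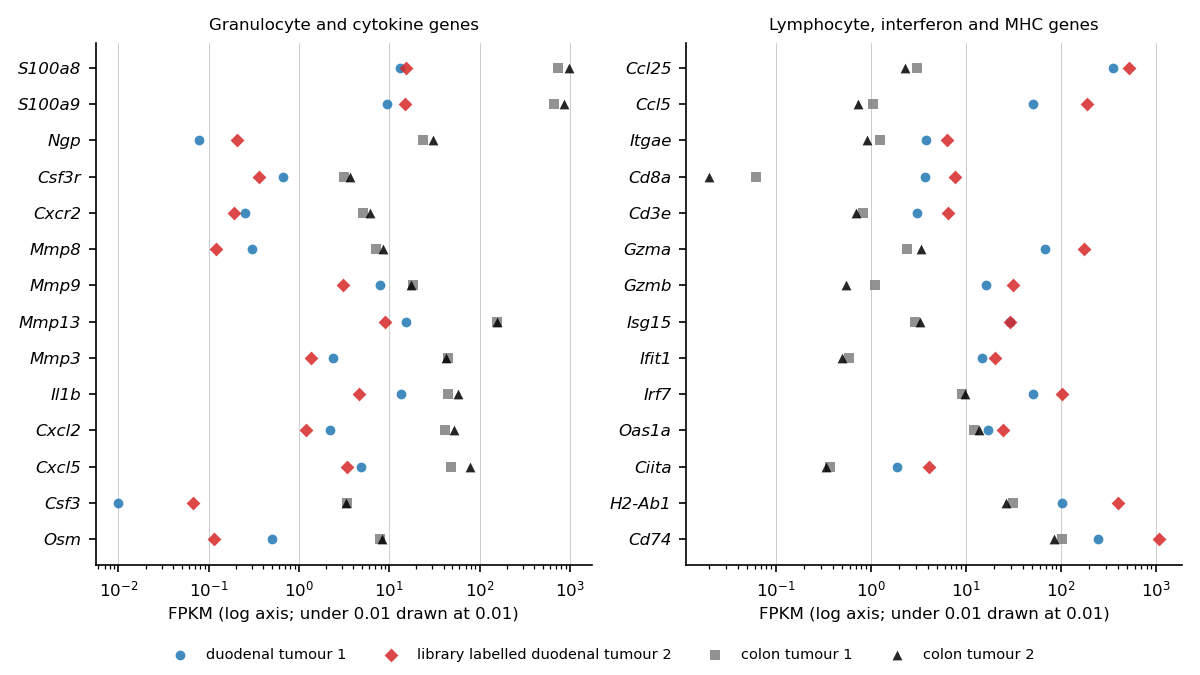
Levels in FPKM (log axis) of 14 granulocyte, cytokine and protease genes (left) and 14 lymphocyte, interferon and antigen presentation genes (right) in the 4 tumours. The colon tumours lie above both duodenal libraries for all genes on the left and below them for all genes on the right. The genes were picked for the figure with the results known, so this separation is no result of its own. Ifit2, the interferon-stimulated gene that did not rise, is not drawn. Over all tested genes, the values of the organs did not overlap for 72.6%.

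Wnt pathway genes differed in part of the feedback inhibitors. Of 19 tested members of the feedback inhibitor list 7 fell and none rose, with a median log2 difference of -0.57, and of -0.33 against duodenal tumour 1 alone. Apcdd1, a membrane inhibitor of Wnt signalling, had 4.56 and 4.04 FPKM against 36.5 and 57.6 FPKM, a log2 difference of -3.15 ± 0.40 (SE; limma adjusted p = 8.2e-05) and -3.08 against duodenal tumour 1 alone (limma adjusted p = 0.0011). Dkk2, a secreted antagonist of the Lrp coreceptors, had 3.33 and 4.4 FPKM against 22.7 and 28 FPKM. Bambi, counted in the list although it inhibits TGF-beta and not Wnt signalling, had 2.42 and 2.45 FPKM against 5.89 and 11.8 FPKM. The widely used Wnt targets Axin2 (32.9 and 31.4 FPKM against 64 and 70.6 FPKM), Nkd1 (57.2 and 33.3 FPKM against 67 and 64.1 FPKM) and Notum (85.6 and 48.8 FPKM against 57.7 and 61.6 FPKM) did not pass. The log2 difference of Axin2 was -1.04 ± 0.42 (SE; limma adjusted p = 0.065), and with the 4 tumours fitted without the other groups it passed (limma adjusted p = 0.0103), over a range of 0.0103 to 0.204 under the alternatives tried. Of 25 growth and positioning targets of beta-catenin 3 rose and 4 fell, below the shares over all genes, and Myc (28.4 and 19.5 FPKM against 34.8 and 33 FPKM) and Ccnd1 (43.1 and 51.1 FPKM against 50.2 and 45.7 FPKM) did not pass. Of 20 crypt stem cell genes 3 rose and 2 fell, and 4 rose and 1 fell against duodenal tumour 1 alone. Lgr5, the receptor that marks crypt base stem cells, had 17.6 and 8.04 FPKM against 22.8 and 14 FPKM with overlapping groups. Olfm4, a stem cell marker of the small intestine that mouse colon lacks, had 191 and 114 FPKM against 0.8 and 1.2 FPKM, a log2 difference of 6.23 ± 0.62 (SE; limma adjusted p = 1.4e-05). None of 26 cell cycle and replication genes passed limma's adjusted threshold with both libraries, none had an unadjusted p under 0.05, and their median log2 difference was -0.07.

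Of 24 genes of regenerative and fetal-like epithelium 12 fell and 2 rose, and 2 rose and 9 fell against duodenal tumour 1 alone. The surface protein Ly6a had 54.9 and 77.8 FPKM against 364 and 437 FPKM and Anxa1 84.2 and 83.1 FPKM against 360 and 446 FPKM, with log2 differences of -2.59 ± 0.35 (SE; limma adjusted p = 1.2e-04) and -2.25 ± 0.18 (SE; limma adjusted p = 2.8e-06). Both were even within each organ. Between normal duodenum and colon 2 of the 24 genes were higher and 12 lower, and of all 14098 tested genes 4018 and 3835. From that normal difference 4 departed upward and 2 downward, where 12.0% and 13.4% of all tested genes did. The other colon specimens had 174 to 725 FPKM of Ly6a and 92.1 to 513 FPKM of Anxa1, and the other duodenal specimens 30 to 53.5 and 6.66 to 163 FPKM. Clu, a marker of injury-induced stem cells, went the other way without passing, at 680 and 381 FPKM against 203 and 147 FPKM. The claudins Cldn8 (1.18 and 1.12 FPKM against 45 and 58.1 FPKM) and Cldn15 (256 and 258 FPKM against 25.5 and 15.2 FPKM), which line tight junctions, moved in opposite directions, and the barrier components Tjp1 (23.4 and 24 FPKM against 19.5 and 21.2 FPKM) and F11r (127 and 165 FPKM against 127 and 134 FPKM) did not pass.

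The organ difference was compared with that of normal tissue. The organ difference in these tumours departed from that in normal tissue for 3581 genes, 25.4% of those tested, 1688 (12.0%) upward and 1893 (13.4%) downward. Of the 5665 genes called here, 3684 (65.0%) were also called between normal duodenum and colon, which is 46.9% of the 7853 called there, and 93.8% of the shared genes had the same direction. Over all tested genes the sign was the same for 67.3%, and over the genes called here for 83.1%. No sample is shared between the 2 comparisons. All 13 neutrophil genes departed downward, and 10 did without the library labelled duodenal tumour 2. The organ difference of Ngp was 0.02 in normal tissue and -4.60 in these tumours, a difference of -4.62 ± 0.35 (SE; limma adjusted p = 2.8e-05). Chi3l3, Stfa2 and BC100530, further myeloid genes of which the last 2 have close copies, departed by -4.18, -3.82 and -3.04. Mmp10 had 3.57 in normal tissue and -2.21 in the tumours. The Paneth gene Lyz1 had an organ difference of 7.30 in normal tissue and 0.13 in the tumours, where the colon tumours had 3146 and 1541 FPKM, a departure of -7.17 (limma adjusted p = 0.0014). In the Paneth list 7 of 17 genes departed downward and none upward, and 11 departed downward without the library labelled duodenal tumour 2. In the goblet list 14 of 22 departed upward, and in the colonocyte list 10 of 22. Without that library the counts were 7 and 2. The organ difference of S100a6, a calcium-binding protein, was -4.45 in normal tissue and -1.26 in the tumours, and the departure of 3.19 ± 0.18 (SE) had the smallest limma adjusted p among the upward ones (5.0e-06). The forkhead factor Foxa1, the fucosyltransferase Fut2, the acyltransferase Mboat1 and Serpinb5 departed upward by 1.69, 3.82, 4.12 and 2.94. In 12 of 26 cell cycle genes the departure was downward with that library and in 1 without it. Of 22 brush-border genes 3 departed upward and 0 downward, and of 23 lipid genes 1 and 1. Without that library 1 of the brush-border genes departed upward. Without the library labelled duodenal tumour 2, 1799 genes departed, and without colon tumour 1 or 2 it was 1258 or 1365. The departure covers tumour against normal tissue as well as Apc and Cftr genotype and animal, which cannot be told apart here. Normal duodenum and colon came from the same mice, while the tumours of each organ came from a different mouse. Normal specimens were read in runs 1 and 2 and these tumours in run 1. On run 1 columns alone 3568 genes departed.

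**Figure D5:**
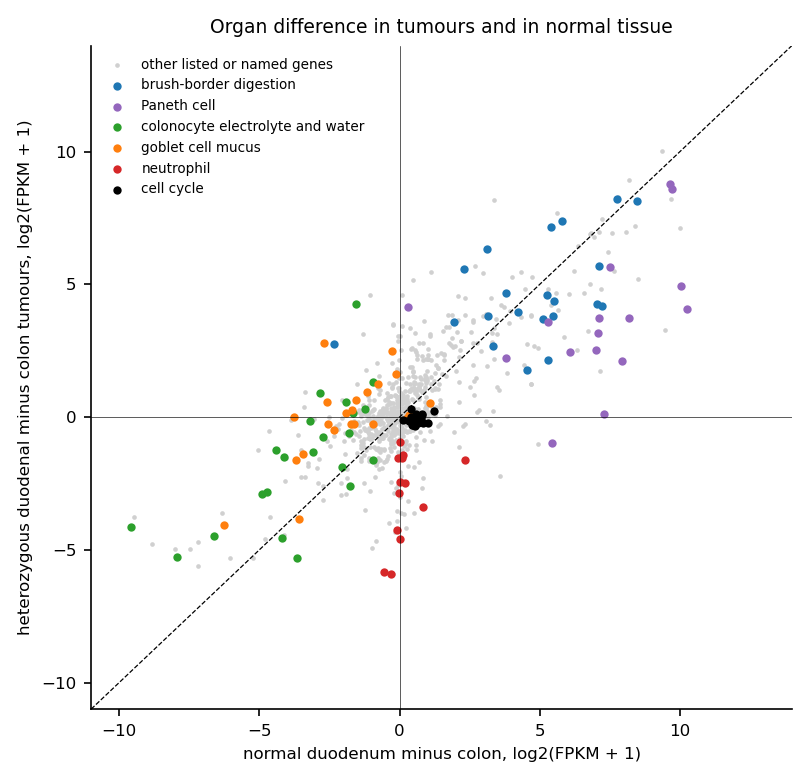
Log2(FPKM + 1) difference between duodenum and colon in the heterozygous tumours (vertical) against the same difference in normal tissue (horizontal) for the listed or named genes, with 6 lists in colour. The dashed line marks equal differences; neutrophil genes lie near 0 or above on the horizontal axis and below 0 on the vertical one, most Paneth genes lie below the dashed line, and brush-border genes spread around it.

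The organ difference was also set beside those of other tumours. Between Apc wildtype Cftr knockout duodenal and colon tumours 5151 genes were called, 3316 in both comparisons (58.5% of the genes called here and 64.4% of those called there), with the same direction in 99.5% of the shared genes, 92.0% of the genes called here and 74.7% of all tested genes. The organ difference itself departed for 94 genes, 0.667%, where the Apc wildtype colon arm is a single tumour that is assumed to vary like the other groups, and for 19 or 16 without colon tumour 1 or 2 and 816 without duodenal tumour 1. In a fit of the groups compared alone none passed limma's adjusted threshold and 2112 had an unadjusted p under 0.05. The genes with the smallest p among the upward departures were the matrix and stroma genes Wisp2, Serpinf1, Pcolce, C1s, Efemp2 and Igfbp7 together with Slfn4 and BC028528. Wisp2 differed by -3.60 in the Apc wildtype tumours and by -0.54 here. Ngp, Stfa2, BC100530 and Chi3l3 had the smallest p among the downward departures, with -0.11 for Ngp in the Apc wildtype tumours. The neutrophil list as a whole was lower in the duodenum there too. Its median log2 difference over 13 genes was -1.51 in the Apc wildtype tumours and -2.5 here. In ApcMin Cftr wildtype ileum against colon tumours 1667 genes were called, of which 1296 were also called here (77.7% of those there and 22.9% of those here) and 98.2% of these had the same direction, against 81.1% of the genes called here and 68.3% of all tested genes. The departure from that ileum-colon difference passed for 620 genes, 4.40%, and for 53 or 39 without colon tumour 1 or 2; in a fit of the groups compared alone none passed limma's adjusted threshold and 2199 had an unadjusted p under 0.05. For Ngp the ileum-colon difference was -0.38. In the list of interferon-stimulated genes 12 of 22 departed upward, and in the neutrophil list 6 of 13 downward; without the library labelled duodenal tumour 2 these counts were 7 and 3. In ApcMin Cftr knockout ileum against colon tumours 1892 genes were called and 1274 of them here, 96.3% with the same direction, against 70.6% of the genes called here and 59.4% of all tested genes. Sequencing run differs between those tumours and the heterozygous ones, so that run, animal, Cftr genotype and segment cannot be told apart in these departures.

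The 2 tumours of an organ differed more in the duodenum than in the colon. Of 9532 genes at 5 FPKM or more, 675 differed by over 1 log2 unit between the duodenal libraries, 419 of them higher in the library labelled duodenal tumour 2. In the colon tumours it was 50 of 9439. The 10 genes with the widest gap in the duodenum were Fabp6, Tmigd1, Reg1, Gm766, Pla2g4c, Slc10a2, Snora21, Plb1, Defa20 and Fgf15. Reg1, a secreted lectin of the upper gut, read 1241 and 8.92 FPKM, and the other duodenal specimens 2013 to 8233 FPKM. Plb1, a brush-border phospholipase, read 0.137 and 75.4 FPKM, and the ileum tumours 3.42 to 91.5 FPKM. Snora21 was listed at 0 in all libraries but duodenal tumour 1 and is a small RNA whose FPKM rests on a very short gene. In the colon, genes of the Hoxd cluster set the 2 tumours apart. Hoxd13 was at 1.48 FPKM in colon tumour 1 and 70.5 FPKM in colon tumour 2, Hoxd11 at 0.148 and 8.1 FPKM and Hoxd10 at 0.202 and 5.22 FPKM, against at most 1.72 FPKM for these genes in the duodenal libraries. The other colon specimens ranged from 0.0532 to 99 FPKM for Hoxd13. Hoxb13 and Hoxa13 were even between the colon tumours, at 224 and 252 and 15.3 and 15.9 FPKM. The antimicrobial lectins Reg3b and Reg3g were higher in colon tumour 1, at 538 and 116 and 550 and 157 FPKM, as was the gastrokine Gkn3 at 10.6 and 1.39 FPKM. The keratin Krt15 was the higher in colon tumour 2, at 15.4 FPKM. Between the organs Reg3b had a log2 difference of 4.84 ± 1.53 (SE; limma adjusted p = 0.024) with both duodenal libraries, and of 4.05 against duodenal tumour 1 alone (limma adjusted p = 0.14).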

How the data were processed

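RNA-seq was analysed from 4 heterozygous tumours within the table of 23 specimens. The authors deposited FPKM values made with Cuffnorm from TopHat2 2.0.13 alignments to mm10 after FastQC, per the submitters' processing notes, with 2 lanes for each of these tumours. Cuffnorm scales all columns together, so a gene's FPKM depends on the other genes of its library, and raw counts were not used here; relative depth came from the steps of low values. Lane values were averaged per specimen on log2(FPKM + 1), with a pseudocount of 1. Genes that reached 1 FPKM in 2 specimens or more entered a fit in limma 3.58.1 in R 4.3.3 (group means over all specimens, empirical Bayes with trend, Benjamini-Hochberg at 0.05), with the 2 Cftr wildtype duodenum specimens entered as 1 sample because they differed by about lane noise (0.987 and 1.05 times it in the 2 runs). The code was tested on simulated data.

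Genes were named by rule: the 15 largest rises and 15 largest falls with groups that do not overlap and a level of 5 FPKM or more, up to 8 members with the smallest p plus role-defining members of each list, the 8 smallest p in each direction for each departure, and the 10 widest gaps between tumours of an organ. The members and the gene lists were chosen with earlier results of these data known. Alternatives were the pseudocount, filter, scaling, groups in the fit, run, replicate block and leaving out each tumour. Replicate numbers do not pair the tumours. Of the gene names, 27 read as dates, and none of these is named here. A few genes that the rule would name are not reported here. Gene positions are from GENCODE M21 and promoter sequences from RefSeq, both GRCm38. The spread behind the p-values is pooled over all groups, which hold tumours of 1 mouse as well as tissue of different mice. With 1 animal for each organ, the p-values do not measure the spread between mice of the heterozygous genotype.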

Additional observations from a re-analysis of the deposited data

Results flagged for a closer look

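Each value here is a difference between 2 groups of the organ difference, tested as a limma contrast, and each gene named had an adjusted p under 0.05. Among 14098 genes the organ difference of the heterozygous tumours departed from that of normal tissue in 3581. The genes with the smallest p were higher for S100a6 (3.19 on the log2 scale), Serpinb5 (2.94), Foxa1 (1.69), C2cd2 (1.53), Mboat1 (4.12), Azgp1 (2.52), Fut2 (3.82) and Cdc14a (1.22). They were lower for Chi3l3 (-4.18), Stfa2 (-3.82), BC100530 (-3.04), Ngp (-4.62), Serpina3m (-2.56), Mmp10 (-5.78), Il1r2 (-3.47) and Hmgb3 (-1.33).

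Against the ileum-colon difference of ApcMin Cftr wildtype tumours 620 genes departed. The leading ones were higher for Chdh (1.63), Erap1 (1.12), Taf15 (0.95), Slc12a7 (0.88), Magt1 (0.98), Sh3d19 (0.83) and Acot11 (1.29), and lower for Chi3l3 (-3.86), BC100530 (-2.77), Ngp (-4.21), Stfa2 (-2.87), Hoga1 (-2.20), Lmo4 (-1.13), Fgf7 (-1.32) and Apod (-1.94).

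Against the tumours of Apc wildtype Cftr knockout mice 94 genes departed. The leading ones were higher for Wisp2 (3.06), Serpinf1 (2.08), Pcolce (1.80), C1s (1.84), Efemp2 (1.52), Slfn4 (2.08), Igfbp7 (1.16) and BC028528 (1.57), and lower for Stfa2 (-3.67), Ngp (-4.49), BC100530 (-2.68), Chi3l3 (-3.11), Ugt2b35 (-2.46), Psph (-0.79), Guk1 (-1.08) and Hoga1 (-1.39). The 3 comparisons share the heterozygous tumours, so a gene that leads in all 3, such as Ngp, is not seen 3 times independently.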

How the results depend on the processing

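The 2 libraries of each organ are the main limit: the count of 5665 genes ranged from 3438 to 5628 when 1 tumour at a time was left out, and 3606 genes passed when the 4 tumours were fitted without the other groups. Tumours numbered alike deviated with a correlation of -0.0012 over 14098 genes, so the number does not pair them, and with the replicate block 2338 genes passed. Quantile normalisation gave 6143 genes with 40.8% of them higher in the duodenal libraries, against 49.0% in the fit as reported. The departures from normal tissue (3581) ranged from 1258 to 4273 when 1 tumour was left out. Those from the ileum-colon difference (620) ranged from 39 to 967, and none passed in limma on the groups compared alone (2199 at an unadjusted p under 0.05). Those from Apc wildtype tumours (94) ranged from 16 to 816; they were 53 with a pseudocount of 0.1, 265 with no filter on low values, 23 on run 1 alone and 0 in limma on the groups compared alone (2112 at an unadjusted p under 0.05). Of 2676 values of the 223 named genes under the alternatives, 2460 kept their direction and their side of the threshold, 139 no longer passed, 39 newly passed and 38 changed sign.

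When 1 tumour at a time was left out, the log2 difference took both signs for Azgp1 (-0.22 to 0.23), Ccnd1 (-0.15 to 0.09), Col1a1 (-1.11 to 0.13), Cyp2b10 (-0.03 to 3.49), Defa20 (-0.57 to 5.50), Defa22 (-0.29 to 5.33), Duox2 (-0.09 to 3.09), Efemp2 (-0.08 to 0.09), F11r (-0.04 to 0.34), Fabp6 (-1.78 to 10.97), Gsta1 (-0.06 to 2.58), Guca2a (-0.37 to 2.28), Kcnn4 (-0.53 to 0.35), Lyz1 (-0.39 to 0.64), Muc2 (-0.13 to 1.39), Nos2 (-2.25 to 2.43), Notum (-0.29 to 0.51), Pdx1 (-0.12 to 1.77), Reg1 (-0.22 to 6.76), Slc10a2 (-0.03 to 6.27), Slc9a3 (-0.61 to 0.90), Tff2 (-0.15 to 4.55), Tmprss15 (-0.03 to 3.61) and Ugt2b35 (-0.62 to 0.08). With a pseudocount of 0.1 it changed sign for Azgp1 (-0.03) and Nos2 (-0.10). With quantile normalisation it changed sign for F11r (-0.22), Guk1 (-0.12), Lyz1 (-0.26), Nos2 (-0.04), Notum (-0.15) and Slc9a3 (-0.01). None of these genes passed the threshold in limma as reported, none of the changed values did, and the cause was not tested.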
